A study of Mus musculus with 21 samples.

Results

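Lumbar spinal cord of mice that carried 1 working copy of the C9orf72 ortholog was compared at 17 months of age with the cord of mice that carried both. The comparison used 8 of the 21 libraries of the series, taken by their genotype and age labels. There were 4 libraries from heterozygous mice (C9orf72 +/-) and 4 from wild type mice (C9orf72 +/+). All were C57BL/6, all RNA came from flash frozen lumbar cord, and the libraries of this age were sequenced by the Ion Torrent protocol. The labels name no treatment, no sex and no cell type or promoter that restricts the loss. The 17 month null mice (C9orf72 -/-, 4 libraries) and the 3 month cords, with 3 libraries of each genotype made by the Illumina protocol, are used only to place values. The design text of the series counts animals per genotype, and each library was taken as 1 animal; p-values measure the spread between these libraries, part of which may be technical.

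3110043O21Rik is the mouse ortholog of C9orf72, the human gene in which an expanded intronic repeat leads to amyotrophic lateral sclerosis or to frontotemporal dementia. Its protein forms a complex with SMCR8 and WDR41 that acts on small GTPases and takes part in autophagy and in the function of lysosomes. Mice without the gene are known for immune activation and for altered macrophages and microglia, whereas loss of a single copy models the reduced expression seen in people who carry the repeat. The comparison therefore asks whether 1 missing copy changes the RNA of the ageing cord.

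Of 20153 genes in the 17 month table, 14009 reached 0.5 RPKM (reads scaled to transcript length and to library size, the unit the values were taken to have) in at least 4 of the 8 libraries and were tested with limma on log2(RPKM + 0.5). The targeted gene was the only gene past a Benjamini-Hochberg adjusted p of 0.05, which is 0.00714% of the genes tested. With all 3 genotypes in the model 0 genes passed, and the target had the same difference with a limma adjusted p of 1.00. Every other gene had a limma adjusted p that rounds to 1.00. An unadjusted limma p under 0.05 was reached by 218 genes (1.56%), of which 130 (0.928%) were higher and 88 (0.628%) lower in heterozygous cords. The 4 heterozygous values lay wholly above the 4 wild type values for 161 genes (1.15%) and wholly below them for 74 (0.528%).

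For most genes the confidence interval of the difference was narrow. The intervals were taken gene by gene and not adjusted for the number of genes tested, so a difference beyond them could still miss the threshold. The median standard error of a log2 difference was 0.0764, and the median half-width of its 95% confidence interval was 0.169. For 94.5% of the genes tested the interval lay wholly within 0.5 of 0 on the log2 scale, and for 99.2% within 1 of 0. A log2 difference of 0.5 or more in either direction was measured for 36 genes, and 1 of them, the target, passed the threshold. Over all genes tested the median log2 difference, heterozygous minus wild type, was 0.01, and 54.4% of genes had a difference above 0. The counts for the gene groups described here are to be set against those 2 values. The values of the groups also depended on single libraries, so the medians with each of the 8 libraries left out in turn are given by their lowest and highest value.

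The targeted gene lies on chromosome 4 at 35191285 to 35226175, minus strand, in GRCm38. 3110043O21Rik measured 7.64, 7.42, 7.66 and 7.32 RPKM in heterozygous cords and 1.68, 1.81, 0.926 and 0.579 RPKM in null cords of the same age, against 13.5, 13.7, 13.9 and 14.5 RPKM in wild type cords. No library lay within the range of another genotype, and the 4 heterozygous values spanned less than the 4 wild type values. The heterozygous mean of 7.51 ± 0.165 RPKM was 54.0% of the wild type mean of 13.9 ± 0.451 RPKM (SD, n = 4 each). The gene fell by 0.85 on the log2 scale in heterozygous cords (SE 0.05, limma adjusted p = 3.62e-05), and the exact two-sided permutation test gave p = 0.0286, the smallest that 4 against 4 allows. At 3 months the heterozygous mean was 6.40 ± 0.228 RPKM, which is 52.7% of the wild type mean of 12.1 ± 0.0906 RPKM (SD, n = 3 each; exact permutation p = 0.1, the smallest that 3 against 3 allows). The tables of the 2 ages were normalized separately and came from different instruments, so the levels at the 2 ages were not tested against each other.

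**Figure D1:**
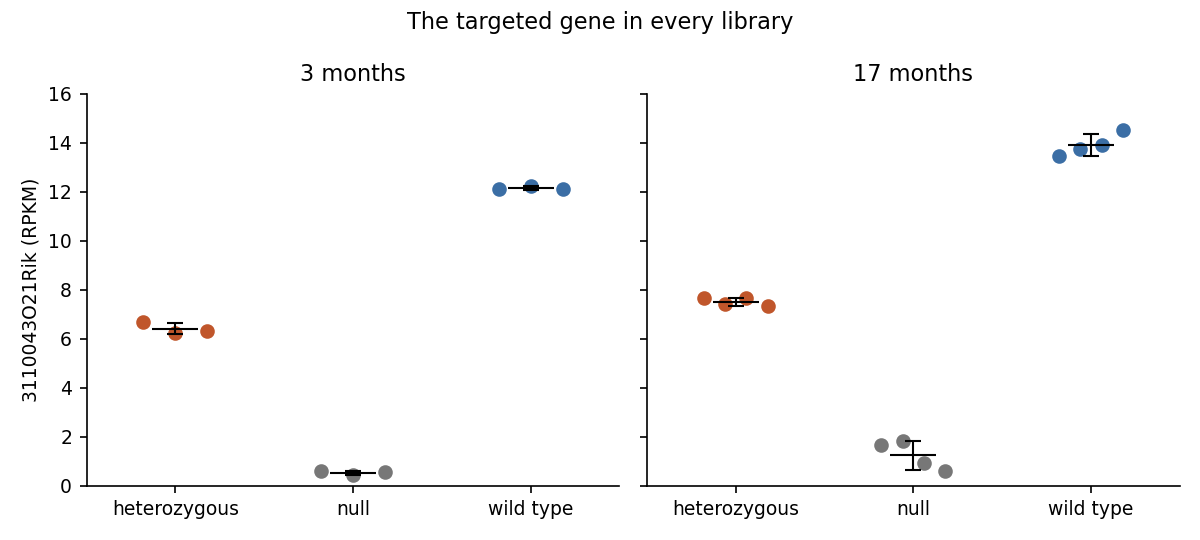
RPKM of 3110043O21Rik in each library, by genotype, at 3 months (3 libraries per genotype) and 17 months (4 per genotype); points are libraries, and the horizontal mark and bar are the mean and SD. At 17 months the heterozygous libraries sit between 7.32 and 7.66 RPKM and the wild type libraries between 13.5 and 14.5 RPKM.

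The libraries themselves were unequal. Wild type replicate 4 stood apart, at 29.26 on a first principal component that held 48.9% of the variance, where the other 7 libraries lay between -10.9 and 4.39. Its value lay outside the range of the other 7 in 8754 genes, 62.5% of those tested. Relative to the other wild type libraries it was higher in the 3481 genes with the shortest annotated exon length (median 0.184 on the log2 scale) and lower in the 3478 with the longest (median -0.064). The library titles also carry a serial number whose meaning is not stated. It was higher in wild type replicate 4 than in every heterozygous library, and lower in the other wild type libraries than in every heterozygous library. The part of that order in the values was not tested. Xist, which is expressed from the inactive X chromosome of females, was high in 1 library of each group, at 38.9 RPKM in heterozygous replicate 1 and 44.6 RPKM in wild type replicate 3, and was at most 1.23 RPKM in the other 6. Markers of the cord were present in all 8 libraries, with Chat of motor neurons at 8.83 to 13.6 RPKM and the lumbar-level gene Hoxc10 at 24.1 to 38.2 RPKM.

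No partner of the C9orf72 protein passed the threshold. Of 11 tested genes of the complex and its partners, 7 lay above and 4 below 0, with a median log2 difference of 0.05 (0.01 without wild type replicate 3 and 0.07 without heterozygous replicate 2, the lowest and highest with 1 library left out). Smcr8, the obligate partner, measured 6.81, 7.15, 6.67 and 7.24 RPKM in heterozygous cords and 6.75, 6.93, 7.04 and 7.42 RPKM in wild type cords (log2 difference -0.01, SE 0.05). The groups overlapped over almost their whole range. Wdr41, the scaffold that brings the complex to lysosomes, measured 14.5, 13.03, 14.6 and 14.03 RPKM in heterozygous cords and 13.4, 15.1, 13.4 and 15.4 RPKM in wild type cords (-0.03, SE 0.06). Ulk1, the kinase that starts autophagy, averaged 18.5 ± 0.715 RPKM in heterozygous cords and 17.9 ± 1.43 RPKM in wild type cords (SD, n = 4 each). Rab39b, a small GTPase that the complex acts on, was the 1 member whose groups did not overlap, at 17.68, 17.99, 18.6 and 19.2 RPKM in heterozygous cords against 17.63, 17.6, 17.6 and 14.9 RPKM in wild type cords. The margin was under 0.1 RPKM, and 1.15% of all genes lay wholly higher. Its log2 difference was 0.12 (SE 0.06), and 0.06 without wild type replicate 4, the lowest library.

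Genes of autophagy had 12 above and 10 below 0 among 22 tested and a median of 0.01, which was -0.01 without wild type replicate 3. Without wild type replicate 4 there were 20 above 0 (median 0.05). Tbk1, a kinase of selective autophagy that is itself mutated in amyotrophic lateral sclerosis, measured 15.6, 15.98, 15.6 and 16.01 RPKM in heterozygous cords and 15.02, 15.5, 15.2 and 13.5 RPKM in wild type cords (0.09, SE 0.05). The groups did not overlap, but the lowest heterozygous value was 15.6 RPKM and the highest wild type value 15.5 RPKM. Of all genes, 1.15% lay wholly higher. Of 28 lysosomal genes, 26 lay below 0, with a median of -0.06. Without wild type replicate 4 the same list had 8 below 0 and a median of 0.02, and without both that library and heterozygous replicate 1 it had 16 below 0 and a median of -0.02. Without wild type replicate 2 there were 27 below 0 (median -0.09). Ctsd, the main aspartic protease of the lysosome, measured 345, 243, 251 and 248 RPKM in heterozygous cords, against 256, 245, 302 and 413 RPKM in wild type cords.

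Below the threshold, 20 genes are described because they had the smallest unadjusted p in their direction, a mean of at least 1 RPKM in a group and groups that did not overlap. Their separation at 17 months is thus a property of the choice. On the higher side Rpl34, which encodes a protein of the large ribosomal subunit, had the smallest p. It measured 5.82, 6.88, 6.02 and 5.68 RPKM in heterozygous cords against 3.84, 4.56, 3.52 and 5.12 RPKM in wild type cords (0.48, SE 0.10). Rpl34 has many near-identical copies in the genome between which reads can be split, so its level is uncertain. Arrdc3, an arrestin-like adaptor for membrane receptors, was at 30.2, 30.5, 29.7 and 30.7 RPKM in heterozygous cords against 25.7, 27.5, 27.3 and 25.5 RPKM in wild type cords (0.19, SE 0.05). The 4 heterozygous libraries lay within about 1 RPKM of each other. Fosl2, a subunit of the AP-1 transcription factor, was at 1.98, 1.87, 2.16 and 2.06 RPKM in heterozygous cords against 1.66, 1.52, 1.52 and 1.67 RPKM in wild type cords (0.27, SE 0.07).

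Of the other higher genes, Higd1b, a pericyte-enriched mitochondrial protein, measured 2.13, 2.04, 1.73 and 1.66 RPKM in heterozygous cords against 1.44, 1.49, 0.888 and 1.21 RPKM in wild type cords (0.45, SE 0.12). Tinagl1, a matrix protein, measured 3.52, 3.23, 3.74 and 2.94 RPKM in heterozygous cords against 2.31, 2.68, 2.73 and 2.67 RPKM in wild type cords (0.31, SE 0.08). Cd55, which restrains complement at the cell surface, averaged 5.36 ± 0.366 RPKM in heterozygous cords and 4.51 ± 0.259 RPKM in wild type cords (SD, n = 4 each). Ptch1, the receptor for hedgehog ligands, was at 22.3, 22.3, 23.9 and 23.1 RPKM in heterozygous cords against 20.7, 20.5, 19.9 and 21.5 RPKM in wild type cords (0.15, SE 0.05). Efcab1, Tmem198 and Grasp made up the rest, with log2 differences between 0.21 and 0.24.

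Among the 10 lower genes, Mir8094, the row of a microRNA precursor, had the largest difference, but it passed the filter on low values only through the wild type group, which favours a difference in this direction. Mir8094 measured 0.400, 0.487, 0.436 and 0.362 RPKM in heterozygous cords against 0.769, 1.59, 1.57 and 0.864 RPKM in wild type cords (-0.85, SE 0.17). Wild type replicates 2 and 3 carried most of the difference, and replicates 1 and 4 lay closer to the heterozygous libraries. The mature microRNA is shown because its position bears on what the row can hold. It lies on chromosome 17 at 35251314 to 35251334, plus strand, in GRCm38, inside an exon of Ddx39b on the same strand (35251247 to 35251378). Its RefSeq sequence (GRCm38.p6), 5′ to 3′ with the seed, bases 2 to 8, in capitals, is
mmu-miR-8094: aACUGAAGgacaacgagaaga
Reads of the Ddx39b transcript and of the precursor cannot be told apart by position there. Ddx39b, an RNA helicase of splicing and mRNA export, was chosen for description after its values were seen. It measured 55.7, 54.3, 53.7 and 56.8 RPKM in heterozygous cords and 55.6, 55.6, 54.2 and 57.8 RPKM in wild type cords (-0.02, SE 0.05). Libraries of the kind the labels describe are not made for RNAs as short as a mature microRNA. At 3 months the log2 difference of Mir8094 was -0.04.

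The other lower genes were small in size of difference. Gemin2, a subunit of the SMN complex that assembles spliceosomal particles and is thus tied to motor neuron disease through its partner SMN, measured 3.39, 2.90, 3.33 and 3.24 RPKM in heterozygous cords against 4.17, 3.79, 3.99 and 3.84 RPKM in wild type cords (-0.26, SE 0.07). Gpx3, a secreted glutathione peroxidase, measured 11.2, 9.96, 11.2 and 12.04 RPKM in heterozygous cords against 12.6, 12.8, 13.3 and 15.2 RPKM in wild type cords (-0.27, SE 0.07). Adamts1, a secreted metalloprotease, measured 4.76, 4.80, 4.14 and 3.48 RPKM in heterozygous cords against 5.35, 6.41, 5.003 and 6.003 RPKM in wild type cords (-0.37, SE 0.10). Its spread within each group was over 1 RPKM. Spag4, Zscan25, Arhgef37, Ppfibp2, Ube2l6 and Wrap53 had log2 differences between -0.37 and -0.20.

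The 3 month cords, which came from other mice, give a separate look at these 20 genes. Of the 10 that were higher at 17 months, 9 were also above 0 at 3 months, where 53.8% of all genes tested were above 0, and 3 of them had an unadjusted limma p under 0.05, a level that 2.48% of all genes reached in that direction. These were Rpl34 (0.24, SE 0.08), Cd55 (0.17, SE 0.06) and Ptch1 (0.13, SE 0.06). Of the 10 that were lower, 7 were also below 0 at 3 months and 1, Gpx3 (-0.13, SE 0.05), had an unadjusted limma p under 0.05, as did 1.58% of all genes in that direction. With 13859 genes tested at 3 months, the target was again the 1 gene past the threshold (0.00722%), and an unadjusted limma p under 0.05 was reached by 563 genes (4.06%). None of the 20 passed the threshold at either age.

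**Figure D2:**
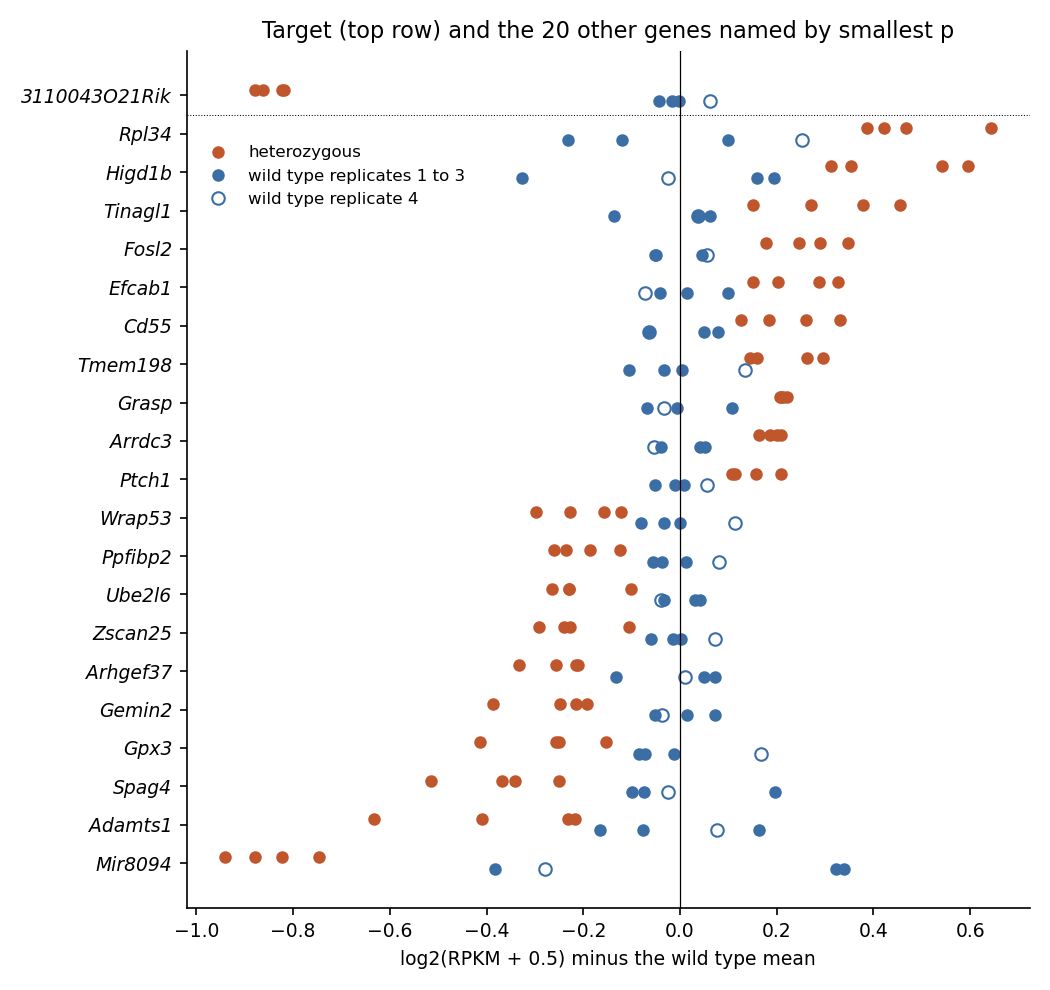
log2(RPKM + 0.5) of each 17 month library minus the wild type mean of the gene, for 3110043O21Rik (top row) and the 20 other genes with the smallest unadjusted p whose groups did not overlap; each point is a library, and the open circle is wild type replicate 4. The target's heterozygous libraries lie more than 0.8 below the wild type mean, whereas most of the other genes lie within 0.5 of it.

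Microglia were the cells of interest in the series, and no gene of their lists passed the threshold. In whole tissue, fewer cells of a type and less RNA per cell cannot be told apart. Of 17 tested genes of activated microglia, 15 lay below 0, with a median log2 difference of -0.17, and of 16 homeostatic genes, 14 lay below 0, with a median of -0.15. Without wild type replicate 4 the activated list had 9 above and 8 below 0 (median 0.01) and the homeostatic list 8 above and 8 below (median -0.01). Without heterozygous replicate 1 the activated list had 16 of 17 below 0 (median -0.27) and the homeostatic list 15 of 16 (median -0.20; -0.21 without wild type replicate 2). Without both libraries, 13 of 17 activated genes (median -0.11) and 13 of 16 homeostatic genes (median -0.10) lay below 0. That choice was made after seeing the data, and it kept wild type replicate 3. There the lists were also high, at means of 0.34 (activated) and 0.21 (homeostatic) on the log2 scale from the members' own medians. With all libraries each list had 1 member with an unadjusted p under 0.05, against 0.628% of all genes in that direction.

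Single genes show the libraries behind these medians. Trem2, the lipid-sensing receptor of microglia, measured 18.5, 11.4, 11.4 and 11.2 RPKM in heterozygous cords and 12.3, 12.7, 16.3 and 24.0 RPKM in wild type cords (-0.29, SE 0.24). One heterozygous and 2 wild type libraries were high, and the rest were level. Cst7, a cystatin of activated microglia, was at 4.76, 1.43, 1.17 and 1.27 RPKM in heterozygous cords and 1.88, 1.23, 3.05 and 4.83 RPKM in wild type cords (-0.34, SE 0.46). Lyz2, a lysozyme of myeloid cells, was at 60.3, 16.5, 19.97 and 18.8 RPKM in heterozygous cords and 22.1, 18.7, 39.2 and 64.6 RPKM in wild type cords (-0.37, SE 0.53). The same libraries stood out in all 3 genes: heterozygous replicate 1 and wild type replicates 3 and 4. P2ry12, a purinergic receptor of resting microglia, did not share this, with 13.8, 13.7, 15.1 and 14.2 RPKM in heterozygous cords and 14.5, 13.7, 13.6 and 15.95 RPKM in wild type cords (-0.02, SE 0.06).

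Siglech and Cd74 each had an unadjusted p under 0.05. Siglech, a lectin of microglia, measured 4.35, 4.40, 4.92 and 4.68 RPKM in heterozygous cords, all below the 4.99, 4.93, 5.38 and 5.95 RPKM of wild type cords (-0.19, SE 0.07). Cd74, the invariant chain of MHC class II, measured 3.55, 2.21, 2.82 and 2.71 RPKM in heterozygous cords and 4.41, 3.39, 3.12 and 5.37 RPKM in wild type cords (-0.45, SE 0.16). The highest heterozygous value of Cd74, again that of replicate 1, overlapped the wild type range. At 3 months Siglech differed by 0.01 and Cd74 by 0.25, which for Cd74 is the other direction.

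Complement and Fc receptor genes had 11 of 13 below 0 (median -0.17). It was 6 of 13 without wild type replicate 4 (median 0.01), 12 of 13 without heterozygous replicate 1 (median -0.31) and 12 of 13 without both (median -0.14). Wild type replicate 3, which was kept there, was also high for this list (mean 0.27 from the members' own medians). C1qa, the first component of the classical pathway, measured 72.2, 43.2, 45.5 and 44.8 RPKM in heterozygous cords and 51.3, 44.6, 58.5 and 89.7 RPKM in wild type cords. Antigen presentation had 10 of 15 below 0 (median -0.09), 8 of 15 without wild type replicate 4 (median -0.02) and 11 of 15 without wild type replicate 3 (median -0.15). Interferon-response genes had 14 of 19 below 0 (median -0.06). It was 11 of 19 without heterozygous replicate 3 (median -0.01), the library in which the list was lowest, and 16 of 19 without heterozygous replicate 1 (median -0.10). Among them Ifi27l2a measured 0.560, 0.896, 0.609 and 0.528 RPKM in heterozygous cords against 0.857, 1.03, 1.03 and 1.10 RPKM in wild type cords (-0.40, SE 0.11). Oasl2, an antiviral gene, measured 2.23, 2.24, 1.94 and 2.65 RPKM in heterozygous cords against 2.80, 2.84, 2.64 and 2.92 RPKM in wild type cords (-0.26, SE 0.08). Both overlapped by 1 heterozygous library. At 3 months they differed by 0.50 and 0.02. Cytokines and targets of NF-kB were split 5 to 5, with a median of -0.03 that was -0.13 without heterozygous replicate 1 and 0.06 without wild type replicate 4.

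**Figure D3:**
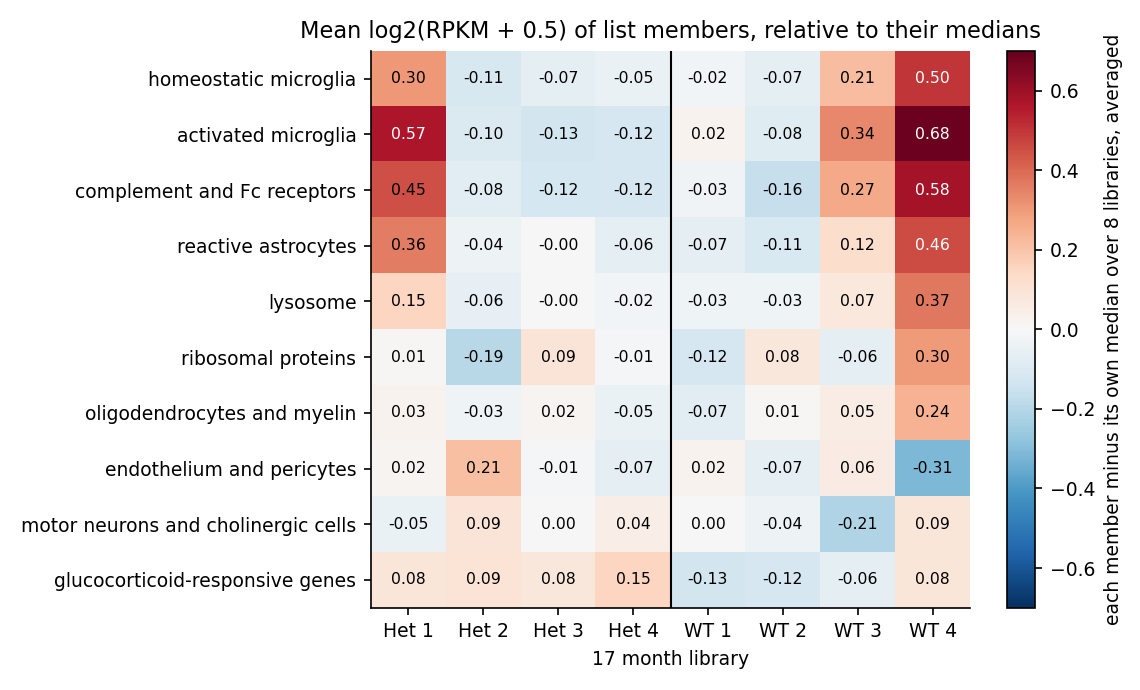
Mean over the tested members of 10 gene lists of log2(RPKM + 0.5), each member taken relative to its own median over the 8 libraries, for heterozygous replicates 1 to 4 and wild type replicates 1 to 4 at 17 months. Microglial and complement lists are highest in heterozygous replicate 1 and wild type replicates 3 and 4 (activated microglia 0.57, 0.34 and 0.68), whereas the 4 heterozygous libraries are alike for glucocorticoid-responsive genes (0.08 to 0.15). For that list wild type replicate 4 lies within the heterozygous range (0.08), and wild type replicates 1 to 3 lie below it (-0.13 to -0.06).

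Medians of other lists also moved when wild type replicate 4 was left out. Myelin and oligodendrocyte genes had 20 of 22 below 0 (median -0.07; -0.01 without that library and -0.12 without wild type replicate 1). Ribosomal protein genes had 28 of 30 below 0 (median -0.08), which was 11 of 30 without wild type replicate 4 (median 0.00) and 30 of 30 without wild type replicate 1 (median -0.13). Mag, an adhesion protein of myelin, measured 220, 214, 211 and 201 RPKM in heterozygous cords and 209, 217, 233 and 270 RPKM in wild type cords. Endothelial and pericyte genes lay on the other side, with 17 of 19 above 0 and a median of 0.14, which became 15 of 19 and 0.04 without wild type replicate 4, and 17 of 19 and 0.20 without wild type replicate 3. Tek, the angiopoietin receptor of endothelium, measured 3.17, 3.59, 3.45 and 3.16 RPKM in heterozygous cords and 3.12, 2.82, 3.37 and 2.51 RPKM in wild type cords (0.16, SE 0.09). Astrocyte genes had 9 above and 6 below 0 and a median of 0.00, which was 13 above 0 and 0.05 without wild type replicate 4 and 7 above 0 and -0.01 without wild type replicate 1. Reactive astrocyte genes had 8 above and 11 below 0 (median -0.01), with medians of -0.12 without heterozygous replicate 1 and 0.06 without wild type replicate 4. Vim, an intermediate filament of reactive glia, measured 67.4, 40.3, 38.8 and 36.5 RPKM in heterozygous cords and 40.1, 35.0, 62.3 and 78.3 RPKM in wild type cords, high in the same 3 libraries as the microglial genes. Oligodendrocyte precursor genes had a median of -0.04, with 4 above and 9 below 0 (-0.06 without wild type replicate 2 and -0.01 without wild type replicate 4). Genes of meninges and fibroblasts (10 above and 3 below 0, median 0.06), of Schwann cells and roots (4 and 3, median 0.02) and of ependyma and cilia (4 and 7, median -0.01) complete the cell types. With 1 library left out the medians of these 3 lists lay between 0.00 and 0.09, between -0.03 and 0.04 and between -0.06 and 0.10.

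**Figure D4:**
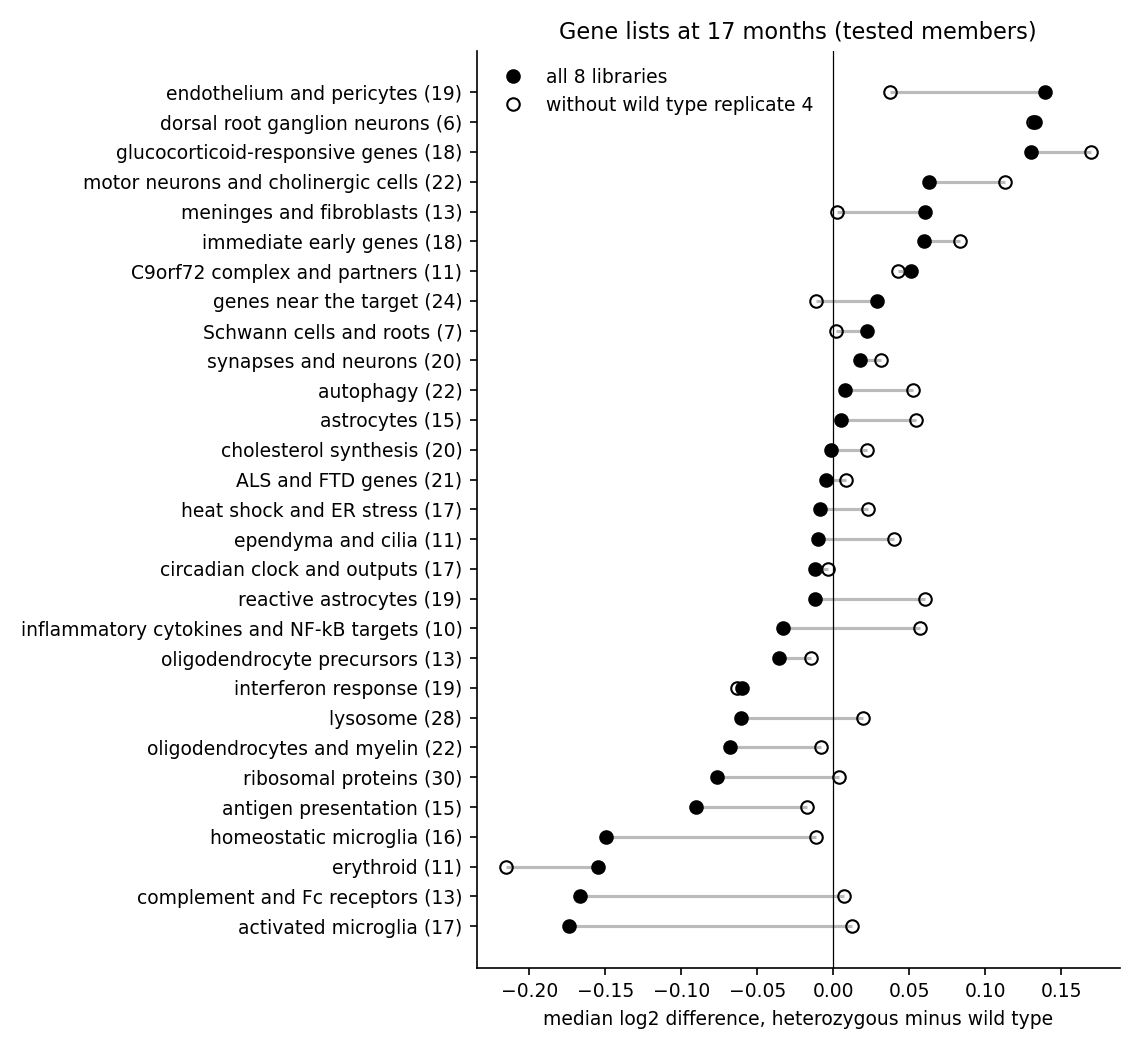
Median log2 difference, heterozygous minus wild type, of each gene list with at least 5 tested members (number in brackets) at 17 months, with all 8 libraries (filled) and without wild type replicate 4 (open). The activated microglia median is -0.17 with all libraries and 0.01 without that library, and the glucocorticoid-responsive median is 0.13 and 0.17.

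Genes of red blood cells had 9 of 11 members below 0, with a median of -0.15 that was -0.33 without wild type replicate 3 and -0.07 without wild type replicate 1. Hbb-b1, an adult beta globin, measured 94.1, 80.7, 139 and 70.0 RPKM in heterozygous cords and 149, 141, 92.8 and 108 RPKM in wild type cords (-0.38, SE 0.22). The groups overlapped, with heterozygous replicate 3 among the high libraries. The globin copies are near-identical and are not separate evidence. T and NK cell and B and plasma cell genes had 0 members above the filter, mitochondrially encoded genes were not analysed here, and infiltrating myeloid genes and skeletal muscle had 3 each. Mylpf, a light chain of muscle myosin, was highest in wild type replicates 3 and 4 (3.74 and 2.09 RPKM) and lay between 0.757 and 1.20 RPKM in the other 6 libraries.

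Neuronal genes gave small differences. Of 22 genes of motor neurons and cholinergic cells, 16 lay above 0 (median 0.06), but 10 without wild type replicate 3 (median -0.01) and 19 without wild type replicate 4 (median 0.11). Of 20 synaptic and general neuronal genes 12 lay above 0 (median 0.02), with 7 above 0 without heterozygous replicate 3 (median -0.01) and 17 without heterozygous replicate 2 (median 0.04). Slc5a7, the choline transporter of cholinergic terminals, measured 23.7, 26.9, 22.7 and 25.2 RPKM in heterozygous cords and 24.6, 22.3, 18.1 and 21.02 RPKM in wild type cords (0.20, SE 0.09). Chodl, a marker of fast motor neurons, measured 18.8, 22.6, 20.2 and 22.6 RPKM in heterozygous cords and 18.2, 20.8, 13.7 and 19.7 RPKM in wild type cords (0.23, SE 0.12). In both genes wild type replicate 3 was the lowest library of the 8. The summed level of the motor neuron list was 2402 to 2560 RPKM in heterozygous cords and 2143 to 2682 RPKM in wild type cords. Dorsal root ganglion genes, 6 of 6 above 0 with a median of 0.13 that was 0.04 without wild type replicate 3 and 0.21 without wild type replicate 2, had their lowest value in wild type replicate 3 as well, at a mean of -0.37 on the log2 scale from the members' own medians.

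Hox genes of caudal position, chosen after their values were seen, moved with that library. Hoxd10, a gene of lumbar segments, measured 14.8, 10.3, 17.0 and 19.4 RPKM in heterozygous cords and 13.6, 16.6, 2.70 and 14.5 RPKM in wild type cords. Hoxd11, a gene of more caudal segments, measured 2.12, 0.981, 2.85 and 3.75 RPKM in heterozygous cords and 1.88, 2.62, 0.0516 and 2.05 RPKM in wild type cords. Hoxa11 and Hoxc11 were likewise lowest in wild type replicate 3, at 0.110 and 0.119 RPKM, and second lowest in heterozygous replicate 2, at 1.33 and 0.768 RPKM. Hoxd9, of a more rostral group, was at 10.98 RPKM in wild type replicate 3 and at 11.7 to 14.8 RPKM in the other 7. The part of the sampled level of the cord in the neuronal values was not tested.

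Genes known to respond to glucocorticoids lay mostly above 0, also with any 1 library left out. Of 18 tested, 17 lay above 0, with a median log2 difference of 0.13, and 6 (Sgk1, Nfkbia, Per1, Klf9, Arrdc2 and Errfi1) had an unadjusted p under 0.05 in that direction, against 0.928% of all genes; 0 passed the threshold. With 1 library left out, 14 to 17 of 18 lay above 0 and the median was between 0.10 (without wild type replicate 1) and 0.17 (without wild type replicate 4). The count with an unadjusted p under 0.05 was less steady, at 2 without heterozygous replicate 4 and 3 without heterozygous replicate 2 or wild type replicate 1, but 8 without wild type replicate 4. Without both libraries with high Xist 13 of 18 lay above 0 (median 0.14). As a mean of members relative to their own medians, wild type replicate 4 (0.08) lay within the heterozygous range (0.08 to 0.15). The list was chosen with results of these tables known, and it is described, not tested. At 3 months 14 of 18 lay above 0, with a median of 0.06.

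Sgk1, a kinase that controls ion channels, had the largest difference of the list, at 11.2, 27.8, 14.7 and 26.6 RPKM in heterozygous cords, 9.90, 102, 70.6 and 49.0 RPKM in null cords of the same age and 8.56, 8.81, 12.001 and 9.48 RPKM in wild type cords (0.93, SE 0.29, heterozygous minus wild type). Heterozygous replicates 2 and 4 were high, and replicate 1 lay within the wild type range. Of the 4 null libraries, 3 were above every heterozygous library. Nfkbia, the inhibitor of NF-kB, was at 10.6, 14.2, 13.5 and 14.2 RPKM in heterozygous cords and 10.8, 11.2, 10.6 and 10.4 RPKM in wild type cords (0.27, SE 0.08). Per1, a clock gene, was at 5.34, 7.28, 6.06 and 6.66 RPKM in heterozygous cords and 5.30, 5.55, 5.05 and 5.29 RPKM in wild type cords (0.23, SE 0.08). Heterozygous replicate 1 was again at the wild type level for both. Klf9, a transcription factor, was the 1 member whose groups did not overlap, at 28.2, 28.3, 26.78 and 30.3 RPKM in heterozygous cords and 24.8, 26.5, 26.76 and 23.95 RPKM in wild type cords (0.15, SE 0.06). They parted by under 0.1 RPKM. None of these differences passed the threshold after adjustment.

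Other members of the list did not reach an unadjusted limma p under 0.05, though their differences were not all smaller. Lcn2 differed by 0.30 (SE 0.28), Ddit4 by 0.18 (SE 0.09) and Cdkn1a by 0.17 (SE 0.11). Fkbp5, which restrains the glucocorticoid receptor, measured 7.53, 7.68, 8.71 and 7.77 RPKM in heterozygous cords, 7.89, 16.1, 13.7 and 11.3 RPKM in null cords and 7.96, 8.44, 6.43 and 8.61 RPKM in wild type cords (0.02, SE 0.09, heterozygous minus wild type). Zbtb16 differed by 0.10 (SE 0.08), Plin4 by 0.04 (SE 0.13) and Mt1, a metallothionein, by 0.04 (SE 0.14). Angptl4, a lipase inhibitor, was the 1 member below 0 (-0.18, SE 0.16).

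**Figure D5:**
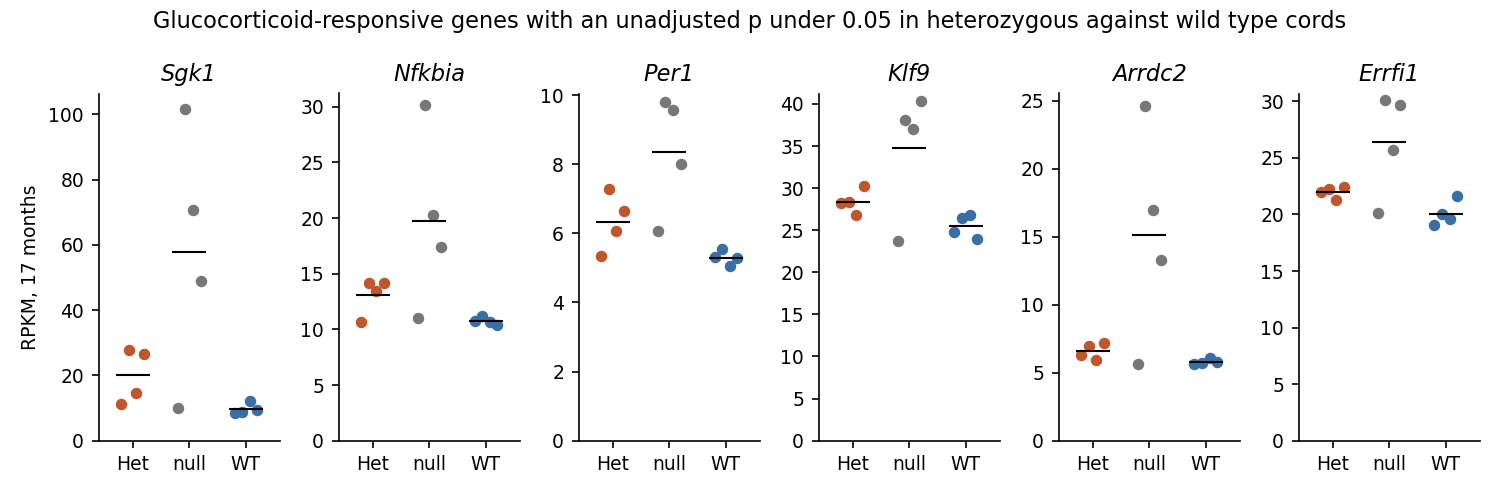
RPKM at 17 months of the 6 glucocorticoid-responsive genes with an unadjusted limma p under 0.05 between heterozygous and wild type cords; points are libraries (4 per genotype) and lines are means. For Sgk1 the heterozygous libraries sit between 11.2 and 27.8 RPKM, the null libraries, shown for their level, between 9.90 and 102 RPKM, and the wild type libraries between 8.56 and 12.001 RPKM.

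Immediate early genes had 13 of 18 above 0 (median 0.06), with medians of 0.02 without wild type replicate 3 and 0.12 without wild type replicate 2. Without both libraries with high Xist there were 8 above and 10 below 0 (median -0.01). Arc, a synaptic gene, was lower, at 11.1, 8.79, 11.02 and 9.26 RPKM in heterozygous cords and 11.8, 12.3, 10.6 and 13.2 RPKM in wild type cords (-0.25, SE 0.09), and Fosb, of AP-1, was higher (0.27, SE 0.11). At 3 months the same list had 17 of 18 above 0, with a median of 0.14. Circadian genes (8 above and 9 below 0, median -0.01), heat shock and ER stress genes (7 and 10, median -0.01), cholesterol synthesis (9 and 11, median 0.00) and genes linked to amyotrophic lateral sclerosis or frontotemporal dementia (9 and 12, median 0.00) lay on both sides, with medians between -0.05 and 0.03 with 1 library left out.

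No neighbour of the target on chromosome 4 passed the threshold. Of 24 tested genes that start within 5 Mb of it, 18 lay above and 6 below 0, with a median log2 difference of 0.03 (-0.01 without wild type replicate 4), a lowest value of -0.08 and a highest of 0.18. Plekhm2, a lysosomal adaptor described because earlier results of the null cords turned on it, measured 41.2, 43.0, 40.1 and 39.9 RPKM in heterozygous cords, 32.8, 34.0, 35.3 and 35.5 RPKM in null cords of that age and 41.0, 39.9, 40.3 and 40.9 RPKM in wild type cords. Its difference between heterozygous and wild type cords was 0.02 (SE 0.05), and the null libraries lay below all 8 others.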

How the data were processed

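For each age the authors deposited a single table of values, 1 column per library, treated here as RPKM because they were not whole, never negative and unequal in total; neither RPKM nor FPKM is stated. TopHat2 2.0.8b, Partek and the builds mm9 and mm10 are named, per the submitters' processing notes, without saying which build made which table. Counting mode, annotation and strand use are not stated there. The 17 month table held 2108 values above 0 and under 1e-06 RPKM, so reads had been apportioned by estimation, no whole reads were recovered and the count test was not run. Read depth is therefore unknown; relative depths estimated from ratios of low values lay between 0.9395 and 1.149 of heterozygous replicate 1. RPKM totals were 298634 to 323122 in heterozygous and 302220 to 341444 in wild type libraries. Of each table, 26 rows named as dates were dropped (at most 0.273% of a total at 17 months), 0 columns were unused and no pair of libraries was identical.

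A gene was compared if 4 or more of the 8 libraries (3 of 6 at 3 months) reached 0.5 RPKM, as log2(RPKM + 0.5) with limma 3.58.1 (R 4.3.3, statmod 1.5.0; trend and robust, two-sided, Benjamini-Hochberg adjusted over all genes tested), heterozygous minus wild type, with no covariate. The pseudocount makes differences of weakly expressed genes look smaller. The script was tested on simulated data. The target also had an exact permutation test. Gene lists are described by counts and medians. Positions came from GENCODE vM21 (GRCm38); the build of the tables was not needed for them, since genes were matched by symbol.

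Named genes are the target, up to 10 genes per direction with the smallest p among those with groups apart and a mean of at least 1 RPKM, up to 4 members with the smallest p per list, neighbours within 5 Mb and Plekhm2; clone names were left out, and a few genes within this rule are not reported. List members shown for their library pattern, and other members named beyond those 4, were chosen after their values were seen. The members and lists were chosen with earlier results of these data known. Alternatives varied the pseudocount (0.1 or 1), filter, normalization, limma settings, array weights, the genotypes fitted, an Xist covariate, a replicate block and each library left out; 4 were added after seeing the data. Figures used matplotlib 3.10.9 in Python 3.11.15.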

Additional observations from a re-analysis of the deposited data

Results flagged for a closer look

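A library that stood far from the other 3 of its group was found in 10 of 120 groups of 4 examined, where chance flags about 1 in 20. Heterozygous replicate 1 was the highest of its group in 5 list scores (mean log2(RPKM + 0.5) over tested members) and in Ccl3. Its score was 3.77 for homeostatic microglia, 4.31 for activated microglia, 3.56 for complement and Fc receptors, 1.64 for inflammatory cytokines and NF-kB targets and 2.69 for reactive astrocytes. Ccl3, a chemokine of activated microglia, was at 2.82 RPKM in that library and at 0.681 to 0.772 RPKM in the other heterozygous libraries. The score of genes near the target was lowest in heterozygous replicate 2 (2.78). Among wild type libraries, the astrocyte score was highest in replicate 4 (6.93), Tinagl1 was lowest in replicate 1 (2.31 RPKM) and Nfkb1 was lowest in replicate 2 (6.50 RPKM).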

How the results depend on the processing

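The log2 difference of the target lay between -0.88 and -0.81 in all 23 alternatives, and it was the only gene past the threshold in 21 of them. With all 3 genotypes in the model, 0 genes passed (120 had an unadjusted limma p under 0.05) and the target, at -0.85, no longer did. The SD of the target's RPKM was 47.4% of the mean in the null libraries this model adds. It was 2.19% in heterozygous and 3.24% in wild type libraries. The cause of the change in the target's adjusted p was not tested. With each library left out in turn, between 1 and 2 genes passed; the second, without wild type replicate 1, was Tmem181b-ps (1.01, limma adjusted p = 0.00137). With the replicate block the count stayed at 1 and the target at -0.85. The replicate numbers are not said to pair the libraries. The deviations of same-numbered libraries from their group means correlated at -0.29, 0.14, -0.46 and -0.11. Deviations within a group sum to 0, so these values cannot exclude a pairing. The number of genes at an unadjusted limma p under 0.05 was 218 with all libraries, 682 without wild type replicate 4 and 906 with array weights, which gave that library 0.164. The share of these that were higher was 59.6% as reported, 41.7% with median centring, 42.3% with quantile normalization and 71.6% with array weights. Of 138 other named genes, 123 kept their sign in every alternative. The unknown read depth limits what can be said of genes under about 1 RPKM.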

Other observations

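Tmem181b-ps, a pseudogene related to Tmem181, is named here because it passed the threshold without wild type replicate 1. It measured 21.4, 24.6, 20.5 and 24.5 RPKM in heterozygous cords and 28.0, 10.8, 11.4 and 10.9 RPKM in wild type cords, so wild type replicate 1 lay above every heterozygous library and the other 3 wild type libraries far below them. Its log2 difference over all 8 libraries was 0.68 (SE 0.29). Reads of near-identical Tmem181 copies cannot be told apart by symbol, and its level is uncertain.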
